A study of Mus musculus with 6 samples.

Results

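The ADAM sheddases measured here are 8 genes, Adam8, Adam9, Adam10, Adam12, Adam15, Adam17, Adam19 and Adamdec1, taken by symbol from a table of 24822 genes. Of these, 6 had enough counts to be tested, among 11354 tested genes, while Adam12 and Adamdec1 had no count in any library. RNA came from macrophages of mouse sciatic nerve, 14 days after an injury that the labels call CCI. All animals were C57BL/6 with the genotype Macblue x Cx3cr1egfp/+, so both groups carried both reporters. In Macblue mice elements of the Csf1r promoter drive ECFP, and in the other allele EGFP stands in the Cx3cr1 locus. Cells from the injured side that carried CD64 and CD11b and lacked SiglecF and Ly6G were sorted by reporter. The EGFP+ gate was taken as resident and the ECFP+ gate as recently recruited macrophages, with 3 libraries in each group. Each library was made from about 400 cells of 3 pooled mice and held 16688848 to 27547336 expected counts. Uninjured nerve was not analysed here.

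ADAM proteases are membrane-anchored metalloproteinases that cut the outer part of other membrane proteins free, a step called ectodomain shedding. They are made as inactive precursors, and most lose their prodomain to furin-type convertases on the way to the surface. ADAM17, first found as the enzyme that releases tumour necrosis factor, and ADAM10, which makes the activating cut in Notch receptors, are the best known of them. In macrophages shedding releases cytokines and growth factors and also removes receptors for cytokines, lipids and dying cells from the surface.

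The macrophage label was checked first. All 8 listed macrophage markers were tested, and their summed level was 38674 to 41708 CPM (counts scaled to library size) in resident and 36610 to 47779 CPM in recruited libraries. Most of this sum was Lyz2, at 30003 to 40440 CPM. Itgam, which encodes the sorting marker CD11b, was read at 698, 452 and 394 CPM in resident and 885, 1120 and 833 CPM in recruited libraries. The groups did not overlap, as for 12.2% of all tested genes with recruited libraries higher (edgeR adjusted p = 0.137). It was called by DESeq2 and by edgeR without resident replicate 1. Fcgr1, which encodes the sorting marker CD64, ran the other way and overlapped, at 235, 169 and 148 CPM against 159, 129 and 190 CPM (log2 difference -0.21 ± 0.21 SE). Of the 8 markers, 5 had positive and 3 had negative log2 differences. Lists for other cell types were not at 0 as a whole. The monocyte list summed to 1235 to 2229 CPM in resident and 1205 to 2154 CPM in recruited libraries, with 5 positive and 2 negative log2 differences. Its Ccr2, chosen after its values were seen, was higher in every resident library, as for 12.6% of all tested genes. It stood at 1112, 739 and 1025 CPM against 562, 476 and 417 CPM. DESeq2 called Ccr2 and Vcan of this list, 1 in each direction (5.72% of all tested genes were called). The Schwann cell list summed to 233 to 531 CPM, mostly Pmp22 and Mbp, and the dendritic cell list to 117 to 608 CPM in resident and 68.7 to 199.8 CPM in recruited libraries, mostly Cd209a. Within the lists, Sox10 and Ncam1 of Schwann cells, Pdgfra of fibroblasts, Emcn of endothelium, Ngp of neutrophils and Cd8a of lymphocytes were at 0 in every library. Resident replicate 1 was the resident library most like the recruited libraries. Its log2 CPM over all tested genes had a Spearman correlation of 0.960 to 0.965 with the recruited libraries. With the other resident libraries it was 0.937 and 0.943. Resident replicates 2 and 3 had a correlation of 0.926 with each other and of 0.921 to 0.931 with the recruited libraries. Resident replicate 1 lay within the range of the recruited libraries for 40.2% of tested genes, against 25.3% and 26.1% for resident replicates 2 and 3. The log2 difference of each tested member is therefore also given without it. That library was picked for its likeness to the recruited group, so leaving it out can by itself widen differences between the groups. In edgeR 580 genes passed without it and 36 with all libraries, so calls made without it are a description only. The labels name 2 sequencing runs and assign no library to either, so run and group cannot be told apart.

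Per transcript length, Adam8 was the most abundant ADAM transcript in nerve macrophages, followed by Adam15, then Adam17 and Adam9, then Adam10. Adam8 encodes the leukocyte member of the family, which removes its own prodomain instead of relying on furin. It was read at 204 ± 29.5 FPKM (SD, n = 3), the deposited value per transcript length and library size, in resident and 319 ± 63.8 FPKM in recruited libraries. Among all 24822 genes Adam8 ranked between 235, in recruited replicate 2, and 663, in resident replicate 3. Adam8 was 2.01 to 4.33 times as high as Adam15 within each library. Adam15, whose product binds integrins through its disintegrin domain, came second in all 6 libraries, at 86.3 ± 20.9 and 103 ± 25.6 FPKM.

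Adam17 and Adam9 could not be ordered. Adam17 stood at 53.8 ± 19.9 FPKM (SD, n = 3) in resident and 82.7 ± 4.53 FPKM in recruited libraries, and Adam9 at 51.5 ± 22.8 and 78.4 ± 6.69 FPKM. Adam17 was the higher of the pair in 3 of the 6 libraries, resident replicate 3 and recruited replicates 1 and 2. The gap between Adam15 and Adam17 was also narrow in places, with a ratio of 1.03 in the library where they were closest and 1.91 where they were farthest apart. Adam10 came next in all 6 libraries, at 30.2 ± 12.4 and 37.5 ± 4.41 FPKM. Adam19 was far below the rest, at 0.790 ± 0.135 and 0.317 ± 0.186 FPKM.

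**Figure D1:**
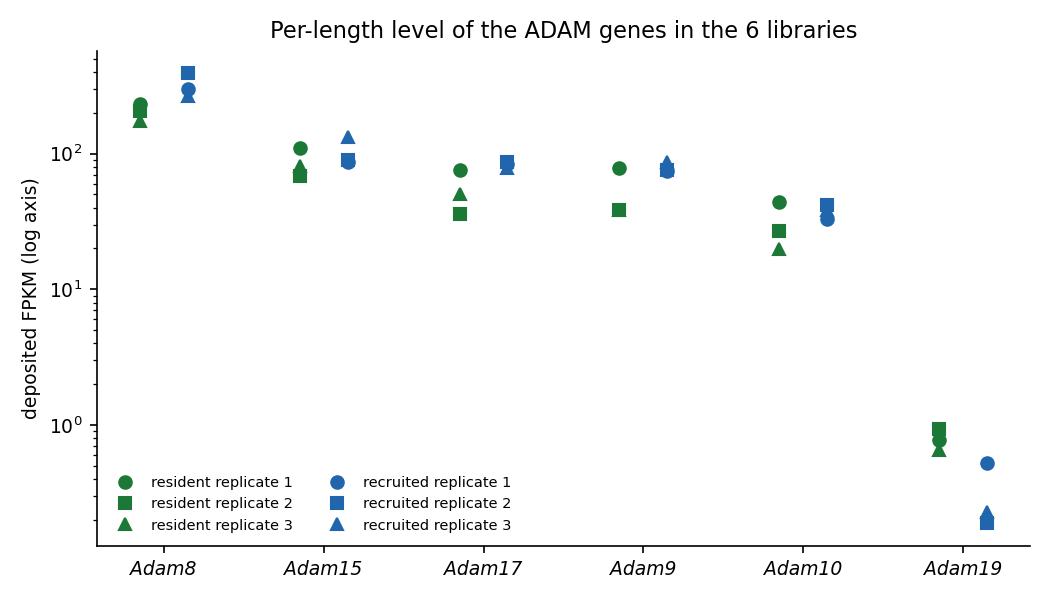
Deposited FPKM (log axis) of the 6 ADAM genes with counts, by library, with resident libraries in green and recruited libraries in blue and a marker shape for each replicate number. Adam8 lies above 170 FPKM in all 6 libraries, Adam19 lies below 1 FPKM in all 6, and Adam17 and Adam9 share the same range.

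Between the groups, 5 of the 6 tested members had a higher fitted level in recruited macrophages and Adam19 had a higher one in resident macrophages. With edgeR (quasi-likelihood, Benjamini-Hochberg) 0 of the 6 had an adjusted p under 0.05, against 0.317% of all tested genes. At an unadjusted p under 0.05 there were 3 members, Adam8, Adam17 and Adam9, all higher in recruited cells, against 8.13% of all tested genes in that direction and 16.8% in either. The CPM of the groups did not overlap for 3 members, Adam8 and Adam17 with recruited libraries higher and Adam19 with resident libraries higher, against 24.9% of all tested genes, 12.2% with recruited and 12.6% with resident libraries higher. The median log2 difference, recruited minus resident, was 0.47 over the 6 members and 0.01 over all tested genes, of which 51.0% were positive. DESeq2 called 1 member, Adam8, higher in recruited cells, against 5.72% of all genes in either direction and 2.45% in that one. Limma on log2(FPKM + 1) called 0 members and 0.634% of all genes. Without resident replicate 1, edgeR called 2 members, Adam9 and Adam17, both higher in recruited cells, against 5.00% of all genes in either direction and 2.19% in that one. In sorted bulk samples fewer expressing cells and less RNA per cell cannot be told apart.

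Upstream sequence is shown for Adam8 and Adam17, the members with recruited libraries higher and no overlap. Each line is the stretch before the RefSeq transcript start on the minus strand, 250 bases, in build GRCm38.p6, the NCBI form of mm10. Capitals mark the GC box, searched as GGGCGG on both strands.
Adam8 upstream: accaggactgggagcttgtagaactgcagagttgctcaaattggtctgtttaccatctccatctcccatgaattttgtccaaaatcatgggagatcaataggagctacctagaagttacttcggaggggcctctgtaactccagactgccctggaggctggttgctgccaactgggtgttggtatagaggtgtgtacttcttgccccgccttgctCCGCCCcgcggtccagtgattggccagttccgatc
Adam17 upstream: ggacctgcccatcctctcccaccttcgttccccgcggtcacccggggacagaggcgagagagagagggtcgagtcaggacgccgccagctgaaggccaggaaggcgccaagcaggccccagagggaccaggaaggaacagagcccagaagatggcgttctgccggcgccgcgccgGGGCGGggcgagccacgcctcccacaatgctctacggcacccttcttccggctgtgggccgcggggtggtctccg
The Adam8 stretch is chr7:139992563-139992812 and the Adam17 stretch is chr12:21373633-21373882. Each holds 1 GC box match, and 32.7% of all 32851 such windows hold at least 1. The Adam17 stretch is 70.4% and the Adam8 stretch 52.8% G and C, against a median of 52.4% over all windows. Adam8 has 2 matches to CCAAT on either strand, found in 33.8% of windows, and Adam17 has 0. The TATA box, searched as TATAAA on both strands, is in neither stretch and in 12.4% of windows. In the other members with RefSeq windows, Adam10 has 3 GC box matches, Adam15 has 1, and none of the windows of Adam19 has one. These matches describe letters and do not show binding.

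Adam8 lies on chromosome 7, 139978932 to 139992562 on the minus strand (mm10, GENCODE M21). Its product can shed L-selectin and the low-affinity IgE receptor and is not blocked by TIMPs. Resident replicates 1 to 3 were read at 655, 621 and 519 CPM and recruited replicates 1 to 3 at 873, 1157 and 772 CPM. Every recruited library was above every resident one, and resident replicate 1 stayed near its group. Group means were 598 ± 70.7 and 934 ± 199.8 CPM (SD, n = 3), 1.56-fold higher in recruited cells (log2 difference 0.64 ± 0.18 SE, edgeR adjusted p = 0.151, DESeq2 adjusted p = 0.0148). Leaving out 1 library at a time moved the log2 difference between 0.46, without recruited replicate 2, and 0.77, without recruited replicate 3, and no such fit passed. Leaving out resident replicate 1 gave 0.72, with an edgeR adjusted p of 0.0888. Neutrophils also carry Adam8. The neutrophil list, of which 5 of 10 genes were tested and all 5 had positive log2 differences, summed to 109 to 136 CPM in resident and 231 to 295 CPM in recruited libraries. S100a8 was read at 29.0 to 72.2 CPM in resident and 38.8 to 106 CPM in recruited libraries, and S100a9 at 2.37 to 9.62 and 5.78 to 8.26 CPM. Mmp8 averaged 3.89 and 61.8 CPM in the resident and recruited groups (edgeR adjusted p = 0.138), and was called by limma on log2(FPKM + 1) and by edgeR without resident replicate 1. Mmp9 averaged 3.21 and 38.8 CPM (edgeR adjusted p = 0.117), and was called by DESeq2. Macrophages can also express Mmp8, Mmp9 and Csf3r. Of the granule genes on the list, Ngp was at 0 in all 6 libraries, Camp did not exceed 0.239 CPM and Ltf did not exceed 0.839 CPM. The part of this list in the Adam8 values was not tested.

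Adam17, on chromosome 12 at 21323509 to 21373632 on the minus strand, encodes the tumour necrosis factor converting enzyme. It was read at 308, 157 and 220.1 CPM in resident replicates 1 to 3 and at 356, 374 and 328 CPM in recruited replicates 1 to 3. The groups did not overlap, but resident replicate 1 came close to recruited replicate 3, while resident replicate 2 was lowest. Means were 228 ± 76.3 and 353 ± 23.3 CPM (SD, n = 3), 1.54-fold higher in recruited cells (log2 difference 0.63 ± 0.23 SE, edgeR adjusted p = 0.230). Without resident replicate 1 the log2 difference was 0.91 and the adjusted p was 0.0379. Without resident replicate 2 it was 0.42, with an adjusted p of 0.340. The 3' end of Adam17 overlaps that of Iah1, an esterase gene on the other strand, by 311 bases. The deposited Adam17 counts are not whole, and in all 6 libraries the sum of the Adam17 and Iah1 counts was whole to within 0.011. The number of reads shared by the pair cannot be read from these values. Iah1 was read at 58.8, 76.4 and 78.9 CPM in resident and 65.4, 57.5 and 43.4 CPM in recruited libraries (log2 difference -0.36 ± 0.20 SE, edgeR adjusted p = 0.421).

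Adam9, a widely expressed member on chromosome 8, 24949611 to 25016927, showed the clearest split inside the resident group. Resident replicates 1 to 3 stood at 287, 152 and 149 CPM and recruited replicates 1 to 3 at 281, 292 and 326 CPM. Resident replicate 1 lay among the recruited libraries, 1.91 times the mean of the other resident libraries, which were almost equal. Means were 196 ± 79.0 and 299.9 ± 23.4 CPM (SD, n = 3), 1.53-fold higher in recruited cells (log2 difference 0.61 ± 0.25 SE, edgeR adjusted p = 0.276). Leaving out that library gave a log2 difference of 1.00 (edgeR adjusted p = 0.0217), while leaving out resident replicate 2 or 3 instead gave 0.46 or 0.45.

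Adam10 and Adam15 differed less. Adam10, on chromosome 9 at 70678997 to 70780229, was read at 187, 123 and 89.0 CPM in resident replicates 1 to 3 and at 144, 186 and 167 CPM in recruited replicates 1 to 3. Resident replicate 1 was the highest of all 6 libraries, and the groups overlapped. Its log2 difference was 0.32 ± 0.26 SE (edgeR adjusted p = 0.583). Leaving out resident replicate 1 gave 0.65, with an edgeR adjusted p of 0.0960, and leaving out resident replicate 3 gave 0.11. Adam15, on chromosome 3 at 89338542 to 89349996, was read at 294, 196 and 231 CPM in resident and 237, 254 and 361 CPM in recruited libraries. Recruited replicate 3 was highest and the groups overlapped throughout. Its log2 difference was 0.24 ± 0.21 SE (edgeR adjusted p = 0.616) and 0.04 without recruited replicate 3, and 0.42 when resident replicate 1 was left out. An antisense gene covers 9290 bases of Adam15 and is not among the 24822 genes with counts here. No source used here says whether counting used strand, so any reads from it cannot be told apart from those of Adam15.

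**Figure D2:**
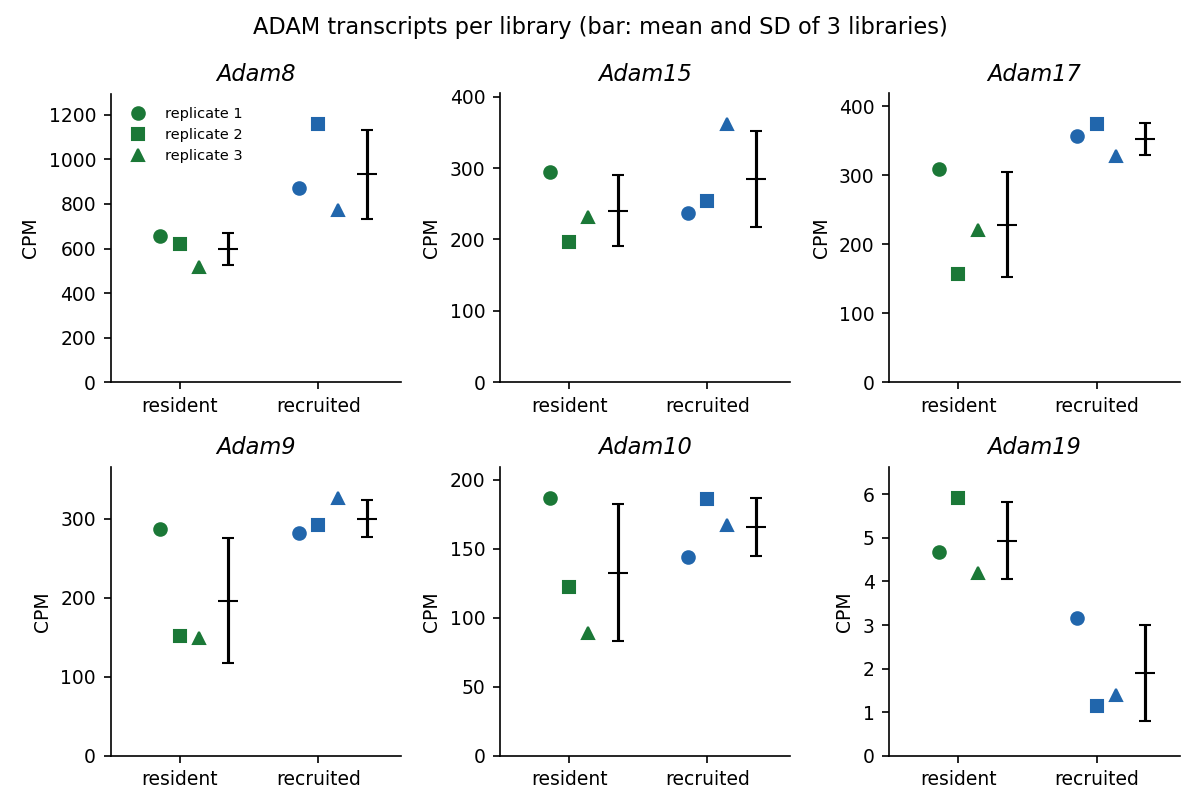
CPM (linear axis from 0) of 6 ADAM genes in each library, resident in green and recruited in blue, with a marker shape for each replicate number and black bars for the mean and SD of 3 libraries. Recruited libraries are all above resident libraries for Adam8 and Adam17, below them for Adam19, and resident replicate 1 lies within the recruited range for Adam9 and Adam15 and is the highest resident library for Adam8, Adam9, Adam10, Adam15 and Adam17.

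Adam19, which encodes a sheddase of neuregulin, ran the other way at a low level. It lies on chromosome 11 at 46055992 to 46147343. Resident replicates 1 to 3 had 134, 115 and 92 counts and recruited replicates 1 to 3 had 53, 24 and 28. As CPM these were 4.68, 5.92 and 4.20 against 3.16, 1.15 and 1.38, with every resident library above every recruited one. The level was 2.60-fold higher in resident cells (log2 difference -1.38 ± 0.69 SE, edgeR adjusted p = 0.365), and the log2 difference lay between -1.95 and -1.11 when libraries were left out in turn, with -1.41 when resident replicate 1 was the one left out. Its annotated span also overlaps antisense genes. Most tested fibroblast markers moved in the same direction. Of the 7 listed, 5 were tested and 4 of these had negative log2 differences, with a summed level of 23.7 to 55.2 CPM in resident and 9.83 to 17.9 CPM in recruited libraries and Pdgfra at 0. The exception, Pdgfrb, was read at 1.29, 0 and 0 CPM in resident and 5.73, 4.15 and 0.593 CPM in recruited libraries (log2 difference 2.97 ± 1.79 SE). Proliferation markers also ran lower in recruited libraries, at 174 to 435 CPM in resident against 35.0 to 62.9 CPM, with negative log2 differences in 6 of 6 and Stmn1 past the edgeR threshold. The part of either in the Adam19 values was not tested.

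Adam12, a sheddase of mesenchymal and muscle cells on chromosome 7, 133883199 to 134232146, and Adamdec1, a short secreted relative on chromosome 14, 68563380 to 68582095, had 0 counts in all 6 libraries. At these depths 3 counts correspond to 0.109 to 0.180 CPM, a floor that covers counting error only. Of the 26 other ADAM genes listed, most of them known from testis or brain, 19 had no count in any library and 3 were tested, Adam33, Adam22 and Adam4. Their FPKM averaged 0.597, 0.488 and 0.438 over the 6 libraries. Adam33, an airway and mesenchymal member, was read at 0.664, 4.32 and 4.70 CPM in resident and 0, 0.716 and 0.296 CPM in recruited libraries (edgeR adjusted p = 0.306). The groups overlapped only through resident replicate 1 and recruited replicate 2. None of the 3 passed in edgeR, at an unadjusted p under 0.05, in DESeq2 or in limma on log2(FPKM + 1).

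**Figure D3:**
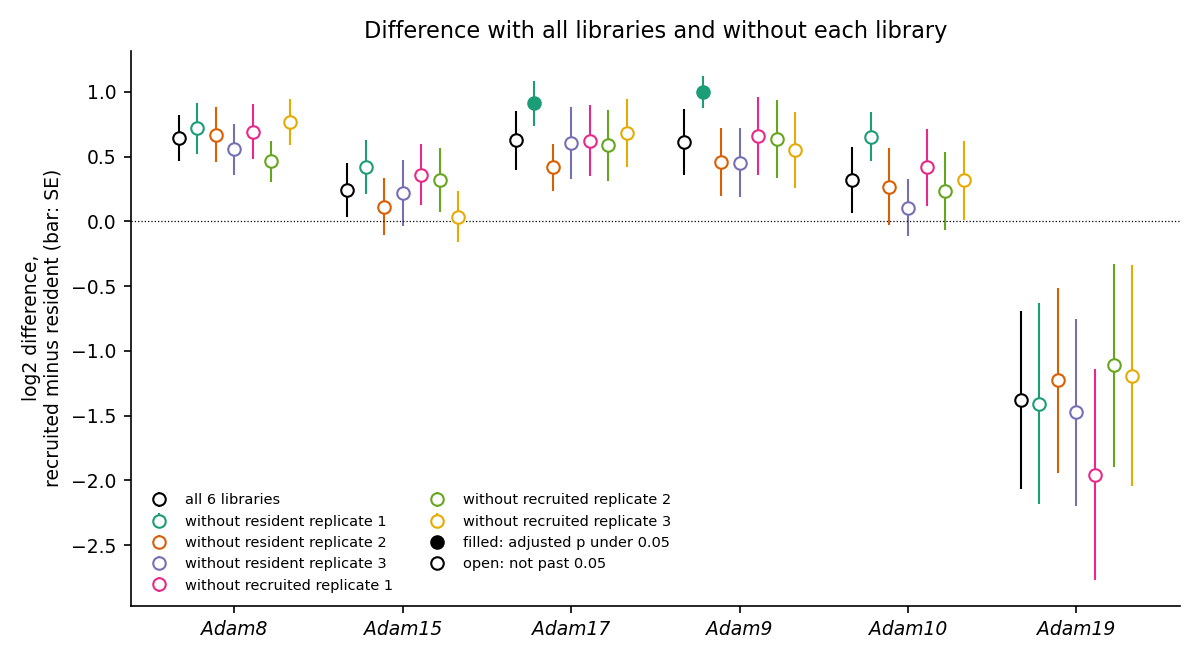
Log2 difference, recruited minus resident, of 6 ADAM genes with all 6 libraries (black) and with each library left out (colours), with the SE as bars and filled points past an adjusted p of 0.05 in edgeR. The filled points are Adam17 at 0.91 and Adam9 at 1.00, both without resident replicate 1, and Adam19 stays below 0 in every fit shown.

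Among the genes that activate and steer ADAM10 and ADAM17, none passed the edgeR threshold, and some had no counts. The ADAM17 list holds the iRhom proteins, which carry ADAM17 to the surface, their partner Frmd8 and the furin-type convertases. Of its 7 genes 5 were tested, 4 with positive log2 differences, and the median was 0.26, while Pcsk5 and Pcsk6 had 0 counts in every library. None passed in edgeR, at an unadjusted p under 0.05, in DESeq2 or in limma on log2(FPKM + 1). Rhbdf2, the iRhom of immune cells, was read at 35.5, 50.1 and 24.9 CPM in resident and 38.8, 50.1 and 43.4 CPM in recruited libraries, which overlap. Frmd8 was read at 89.3 ± 11.2 and 98.2 ± 8.88 CPM (SD, n = 3) and Furin at 50.8 ± 12.4 and 70.6 ± 20.1 CPM. Rhbdf1, the other iRhom and an example chosen after its values were seen, was read at 11.9, 10.8 and 10.4 CPM in resident and 0.239, 5.20 and 7.21 CPM in recruited libraries. It was 2.60-fold higher in resident cells without overlap (edgeR adjusted p = 0.478). Of all tested genes 12.6% had resident libraries higher without overlap.

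The TspanC8 tetraspanins, which bring ADAM10 to the membrane and set its choice of substrates, gave 4 tested genes of 6, 3 of them with positive log2 differences, and a median of 0.26. None passed in edgeR, DESeq2 or limma on log2(FPKM + 1), and 1 had an unadjusted p under 0.05 (16.8% of all tested genes did). This was Tspan14, the most abundant of them at 58.6 FPKM on average, read at 136, 121 and 108 CPM in resident and 157, 159 and 141 CPM in recruited libraries. Its groups did not overlap, as for 12.2% of all tested genes with recruited libraries higher (log2 difference 0.32 ± 0.14 SE, edgeR adjusted p = 0.297). Tspan17 stood at 39.2 ± 6.62 and 44.9 ± 4.23 CPM (SD, n = 3) and Tspan5 at 35.1 ± 8.50 and 51.4 ± 17.2 CPM. Tspan33, chosen after its values were seen, was read at 0.105, 6.95 and 5.52 CPM in resident and 1.37, 2.20 and 0.395 CPM in recruited libraries, which overlap (log2 difference -1.66 ± 1.29 SE, edgeR adjusted p = 0.567). Tspan10 and Tspan15 were at 0 in 5 of 6 libraries each.

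Of the inhibitors, Timp2 and Timp1 were the 2 of 5 with enough counts to test. Timp2, at 140.2 FPKM on average, was read at 447, 404 and 459 CPM in resident and 346, 541 and 698 CPM in recruited libraries, and Timp1, which inhibits ADAM10, at 21.2, 48.1 and 101 CPM against 47.3, 44.3 and 66.2 CPM. Both overlapped between the groups, and the list had 0 genes past the threshold in edgeR, at an unadjusted p under 0.05, in DESeq2 or in limma on log2(FPKM + 1). Timp3, the TIMP that inhibits ADAM17 and chosen here after its values were seen, had counts in recruited replicates 1 and 2, with 6 and 14, and 0 in the other libraries. The SH3 adaptors that bind ADAM tails gave 4 tested genes of 6, with a median of 0.30 and 0 past the threshold by the same counts. Snx9 stood at 103 ± 32.1 and 118 ± 14.9 CPM (SD, n = 3), and Sh3pxd2b, the adaptor of podosomes known as Tks4, at 15.7 ± 1.00 and 16.0 ± 2.27 CPM.

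After shedding, gamma-secretase cuts the remaining stub within the membrane, and its subunits were uneven. All 7 genes were tested, 3 with positive and 4 with negative log2 differences, and the median was -0.03. Ncstn, the subunit that receives the substrate, was read at 289, 212 and 200.1 CPM in resident and 302, 292 and 297 CPM in recruited libraries, without overlap (edgeR adjusted p = 0.325, and 0.0454 without resident replicate 1). Psenen, the small subunit needed to activate the enzyme, was higher in every resident library, at 64.3, 96.2 and 92.3 CPM against 56.1, 51.6 and 47.7 CPM. Its log2 difference was -0.70 ± 0.19 SE (edgeR adjusted p = 0.149, DESeq2 adjusted p = 0.0322, and edgeR adjusted p = 0.0317 without resident replicate 1). None of the 7 passed in edgeR with all libraries or in limma on log2(FPKM + 1), and 2 had an unadjusted p under 0.05 (16.8% of all tested genes did). Of all tested genes 24.9% did not overlap between the groups.

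Substrates of ADAM proteases were read at levels from 2738 CPM, for Itgb2, down to 0. The ligands of the EGF family, released by ADAM10 and ADAM17, were scarce, and 3 of 8 were tested. Areg, which encodes amphiregulin, was read at 1.15, 1.90 and 2.24 CPM in resident and 3.46, 5.97 and 10.3 CPM in recruited libraries. Every recruited library was above the resident ones, as for 12.2% of all tested genes (log2 difference 1.90 ± 0.66 SE, edgeR adjusted p = 0.212). Hbegf did not exceed 7.67 CPM and Nrg1 did not exceed 4.84 CPM in any library. None of the list passed in edgeR, DESeq2 or limma on log2(FPKM + 1), and 1, Areg, had an unadjusted p under 0.05 (16.8% of all tested genes did).

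Among cytokine and receptor substrates 9 of 13 were tested, 6 with positive log2 differences, and the median was 0.22. Tnfrsf1b, a tumour necrosis factor receptor shed by ADAM17, was read at 871, 602 and 590.0 CPM in resident and 1349, 1360.0 and 823 CPM in recruited libraries. Recruited replicate 3 fell below resident replicate 1, so the groups overlapped (log2 difference 0.78 ± 0.23 SE, edgeR adjusted p = 0.171, DESeq2 adjusted p = 0.0207). Cxcl16, a membrane-bound chemokine released by ADAM10, was read at 365 ± 29.1 and 280.0 ± 99.2 CPM (SD, n = 3), and Csf1r, shed by ADAM17, at 1233 ± 243 and 1441 ± 228 CPM. Tnf and Il6ra, classic ADAM17 substrates chosen after their values were seen, stood at 26.5 ± 8.93 and 33.6 ± 7.95 CPM and at 22.9 ± 4.99 and 22.7 ± 3.25 CPM. None passed in edgeR or in limma on log2(FPKM + 1), and 2 had an unadjusted p under 0.05 (16.8% of all tested genes did).

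Among substrates of phagocytosis and adhesion 19 of 20 were tested, 13 with positive and 6 with negative log2 differences, and the median was 0.35. Sirpa, the receptor for the CD47 signal that restrains phagocytosis, was read at 589.5, 503 and 478 CPM in resident and 751, 927 and 798 CPM in recruited libraries, without overlap. Its log2 difference was 0.66 ± 0.14 SE (edgeR adjusted p = 0.105, DESeq2 adjusted p = 8.54e-04). Of all tested genes 24.9% did not overlap between the groups. Itgb2, the beta chain of leukocyte integrins, was read at 1930.4, 1411 and 1602 CPM against 2479, 2738 and 2079 CPM, again without overlap (edgeR adjusted p = 0.162, DESeq2 adjusted p = 0.0212). Trem2, a lipid receptor shed by ADAM10 and ADAM17, was level, at 428 ± 40.7 and 431 ± 56.2 CPM (SD, n = 3), with a log2 difference of 0.01 ± 0.14 SE whose sign turned under other scalings. Cd163, a haemoglobin scavenger receptor shed by ADAM17 and chosen after its values were seen, stood higher in every resident library, at 40.4, 20.7 and 54.8 CPM against 4.18, 1.77 and 12.0 CPM (edgeR adjusted p = 0.129). None of the list passed in edgeR with all libraries or in limma on log2(FPKM + 1), 10 had an unadjusted p under 0.05 (16.8% of all tested genes did), and DESeq2 called 3, Cd163, Itgb2 and Sirpa (5.72% of all tested genes). Without resident replicate 1, edgeR called 4, App, Cd44, Notch2 and Sirpa, all higher in recruited cells (5.00% of all tested genes in either direction and 2.19% in that one).

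**Figure D4:**
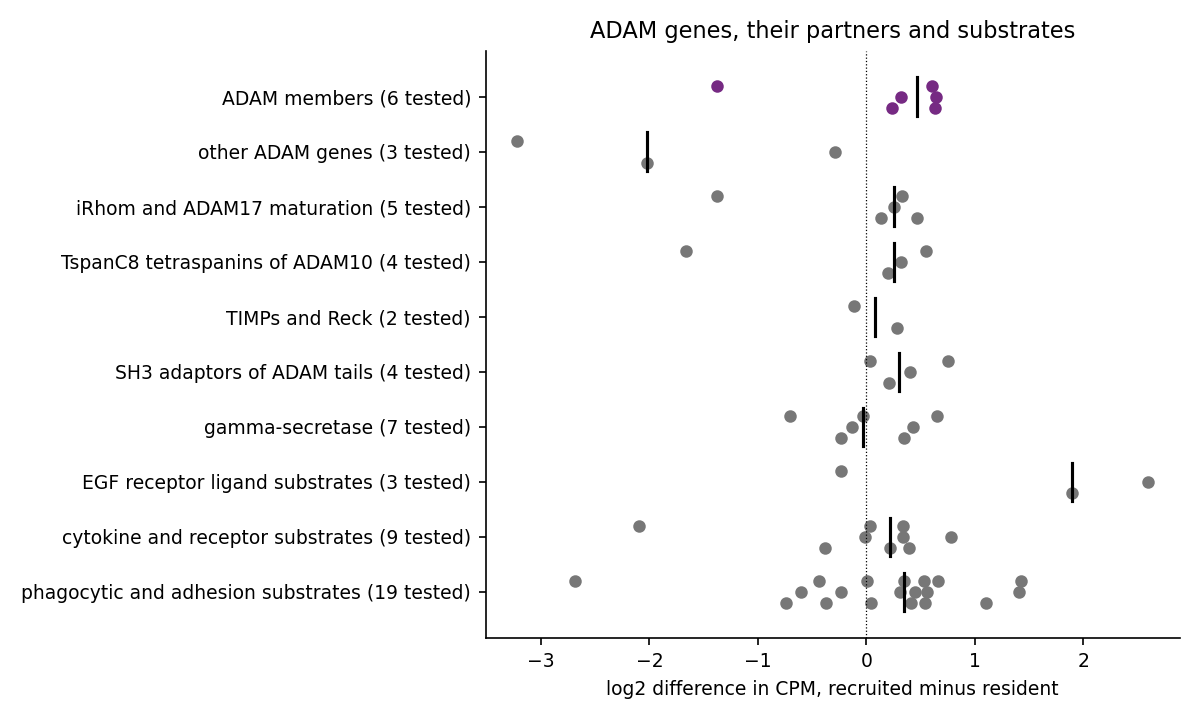
Log2 difference in CPM, recruited minus resident, of each tested gene (points) in the ADAM group (purple) and in the lists of partners and substrates (grey), with black lines at list medians. ADAM members spread from -1.38 to 0.64 around a median of 0.47, and gamma-secretase genes lie on both sides of 0 with a median of -0.03.

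The genes whose log2 CPM followed Adam8 most closely over the 6 libraries, among 7696 genes with a mean of at least 10 CPM, were Abcc1, Abi2, Eif4g3, Fuca2 and Rhbdd1, with Pearson r of 0.991 to 0.998. They were picked as the highest of many and share libraries and depth with Adam8, so r is a description only. Abcc1, an export pump for leukotriene C4 and glutathione conjugates, was read at 85.1, 73.1 and 57.4 CPM in resident and 130, 193 and 105 CPM in recruited libraries, the same order of libraries as Adam8. Its edgeR adjusted p was 0.129. None of these 5 genes passed in edgeR.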

How the data were processed

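Macrophage RNA from 6 libraries, 3 resident and 3 recruited, was amplified with 18 cycles of SMART-Seq v4 pre-amplification and sequenced in pairs, per the labels' protocols. There are no molecular identifiers. The authors deposited expected counts per gene, which need not be whole, without normalization. FPKM values, relative to transcript length and sequencing depth, were deposited beside them. Per the submitters' processing notes, build mm10 was used with RSEM 1.2.28, STAR 2.5.3a, Trimmomatic, FastQC, edgeR and DESeq2. No source used here names the annotation.

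Of 24848 rows, 26 had a date for a symbol and were left out, 0.121 to 0.138% of each library. Total expected counts were 16688848 to 27547336. Counts were rounded and tested with edgeR 4.0.16 (R 4.3.3): quasi-likelihood F test, TMM, filterByExpr, robust estimation, group only, Benjamini-Hochberg adjustment over 11354 genes, threshold 0.05. SE is the size of the log2 difference over the root of F. CPM uses TMM-scaled library sizes. Alternatives were DESeq2 1.42.0, other scalings and filters, limma 3.58.1 on log2(FPKM + 1) and log2(FPKM + 0.1), a replicate block and leaving out each library. The procedure was checked on simulated counts.

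Groups came from sample titles, and replicates are separate pools of mice. The members and gene lists were chosen with earlier results of these data known. Named beside the members were list genes past the threshold, filled up to 3 per list by mean FPKM, and the 5 genes most like the member with the smallest p. Coordinates and overlaps are from GENCODE M21 (GRCm38). Upstream sequences are from RefSeq (GRCm38.p6), which held windows for 5 of the 8 members. The values of some listed genes are not reported here.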

Additional observations from a re-analysis of the deposited data

How the results depend on the processing

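In edgeR with all libraries 36 genes and 0 ADAM members passed. The number of genes was 650 with DESeq2, 58 with no filter, 73 with a filter of 10 CPM in 3 libraries, 72 with limma on log2(FPKM + 1), 56 with log2(FPKM + 0.1) and 8 with log2(FPKM + 1) and no filter, and ran from 0 to 580 when libraries were left out in turn, with 580 without resident replicate 1 and at most 13 without any other. The number of ADAM members was 1 with DESeq2 and ran from 0 to 2 when libraries were left out. The 6 tested members kept the sign of their log2 difference in every alternative that gave a value, and Adam19 was too low for the filter of 10 CPM.

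Log2 differences were followed through the alternatives only for the tested members and the list genes named by the rule above. None of these passed in edgeR with all libraries, and some of the list genes turned sign. With other scalings, filters or units Trem2 turned to -0.014 with upper-quartile factors and to -0.0093 with the stricter filter, Timp1 to 0.16 in each limma fit, and Hbegf to 0.031 with log2(FPKM + 0.1). Leaving out libraries in turn gave a range of -0.86 to 0.68 for Adam22, -0.50 to 0.61 for Timp1, -0.013 to 0.43 for Snx9, -0.081 to 0.12 for Sh3pxd2b, -0.18 to 4.49 for Sh3d19, -1.03 to 1.43 for Hbegf and -0.094 to 0.080 for Trem2. The cause was not tested.

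Same-numbered libraries shared little deviation from their group means (Pearson r across genes 0.016, 0.063 and 0.049, against -0.093 to 0.059 for different numbers). The numbers were therefore not taken as pairs. These values cannot show whether same-numbered libraries came from the same mice. With the replicate block 28 genes and 0 members passed, Adam22 stood at 0.60, Timp1 at 0.13 and Hbegf at 0.0050. Depth limits the genes with few counts, among them Adam19, Adam33, Adam4, Sh3d19 and the EGF family ligands.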

Other observations

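The secreted relatives of the ADAM proteases, the Adamts and Adamtsl genes, were looked at after the data were seen. Of 24 such genes, 13 had no count in any library and 3 were tested, Adamts10, Adamtsl4 and Adamtsl5, none past the threshold in edgeR. Adamtsl5, a matrix protein of microfibrils without protease activity, was read at 31.3, 36.7 and 18.6 CPM in resident replicates 1 to 3 and at 51.6, 58.0 and 72.3 CPM in recruited replicates 1 to 3. Every recruited library was above every resident one, as for 12.2% of all tested genes (log2 difference 1.07, edgeR adjusted p = 0.135). Adamts10, a protease of microfibrils, was read at 20.6, 5.04 and 7.48 CPM in resident and 12.4, 9.74 and 11.3 CPM in recruited libraries, which overlap.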
